A study of Mus musculus with 32 samples.

Results

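The genes described here carry symbols beginning with Cfap (cilia and flagella associated protein) or Dnah (dynein axonemal heavy chain) followed by a number. A search of the 22329 gene symbols of the expression table found 41 such genes, 26 Cfap and 15 Dnah, and 0 with a Dnai symbol. The table covers MC38, a mouse colon adenocarcinoma line, and a derivative with resistance to anti-PD-1, that is, to antibody blockade of a checkpoint receptor on T cells. Both lines were profiled by RNA-seq as subcutaneous tumors in C57BL6/J mice (13 parental tumors and 12 resistant tumors) and as cultured cells (2 parental and 5 resistant libraries). All 32 libraries came from untreated mice or cells, so none records a response to the antibody. The labels name a single resistant line and do not say whether it is a clone, and they do not say which libraries come from separate animals or cultures, so p-values measure the spread between these libraries. Values are in TPM, a level scaled for transcript length and library total. The depth behind each value is unknown.

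A motile cilium is a whip-like projection whose core, the axoneme, is a ring of doublet microtubules around a central pair. Axonemal dynein heavy chains are the motors that slide the doublets past each other, and most Cfap proteins are parts of the axoneme or of the machinery that builds it: proteins inside the doublets, radial spokes, tethers of the dynein arms and central pair projections. Multiciliated cells of the airway, oviduct and brain ventricles, and sperm, use the whole set under the transcription factor FOXJ1 and factors of the RFX family. Intestinal epithelial cells are not multiciliated, and some Cfap proteins also act outside cilia or in the short, immotile primary cilium.

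The sequences upstream of 3 of these genes are shown because their levels differed between the lines in tumors and RefSeq gives a start for them. Each is the 250 bases before a RefSeq transcription start in mouse build GRCm38.p6, on the plus strand, 5′ to 3′. Capitals mark a paired form of the X-box, the site of RFX factors, read here as GTTGC, 6 bases of any kind, then AAC, on either strand. That paired form was chosen after the sequences were seen.
Cfap45, chr1:172520880-172521129: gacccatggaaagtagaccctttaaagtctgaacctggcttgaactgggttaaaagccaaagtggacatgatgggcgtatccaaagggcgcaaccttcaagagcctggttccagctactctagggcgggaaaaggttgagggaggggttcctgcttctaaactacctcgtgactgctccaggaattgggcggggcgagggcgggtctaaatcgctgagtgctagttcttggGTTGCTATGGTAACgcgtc
Cfap61, chr2:145934534-145934783: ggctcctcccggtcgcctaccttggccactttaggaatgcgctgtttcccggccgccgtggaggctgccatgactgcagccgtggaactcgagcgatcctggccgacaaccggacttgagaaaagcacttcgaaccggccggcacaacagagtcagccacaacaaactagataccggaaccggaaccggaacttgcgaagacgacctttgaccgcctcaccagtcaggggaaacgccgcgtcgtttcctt
Dnah12, chr14:26691304-26691553: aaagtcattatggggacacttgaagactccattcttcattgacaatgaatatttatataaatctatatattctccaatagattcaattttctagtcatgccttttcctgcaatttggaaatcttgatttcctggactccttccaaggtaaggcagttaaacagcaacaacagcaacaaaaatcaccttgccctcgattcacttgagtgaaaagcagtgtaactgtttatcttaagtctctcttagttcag
The Cfap45 window ends with the paired X-box form, and the other two windows do not contain it. It occurred in 272 of the 32851 windows of the same length in the RefSeq table (0.828%) and in 2 of the 37 windows of these genes, those of Cfap45 and Cfap44. The RFX core GTTGCC, searched on both strands (reverse complement GGCAAC), occurred in 11 of those 37 windows (29.7%) and in 10.4% of all windows. The forkhead motif TGTTTAC, searched on both strands (reverse complement GTAAACA), occurred in 3 of the 37 (8.11%) and in 3.17% of all. Neither is in the Cfap45, Cfap61 or Dnah12 window, which says only that these letters are not there. CpG dinucleotides numbered 24 upstream of Cfap61, 10 upstream of Cfap45 and 1 upstream of Dnah12, against a median of 6 over all windows. Of the 41 genes, 34 had a window. The 11 windows with the RFX core include 2 overlapping windows of Cfap74. They also include those of the near-identical genes Dnah7a, Dnah7b and Dnah7c, so they are not all independent.

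Most of the motile cilium genes were not expressed, taking a group mean of at least 1 TPM as expressed. By that level 11 of the 41 were expressed in at least 1 group and 30 in none. The count was 11 in parental tumors (26.8% of these genes, against 56% of all genes in the table), 10 in resistant tumors (24.4% against 54.4%), 7 in parental culture (17.1% against 48.7%) and 8 in resistant culture (19.5% against 47.7%). The 6 genes expressed in all 4 groups were Cfap20, Cfap36, Cfap43, Cfap69, Cfap97 and Dnah12, and to these at least 1 group added Cfap45, Cfap58, Cfap61, Cfap74 and Cfap126. In resistant culture the place of Cfap69 rested on replicate 4, without which its mean there was 0.976 TPM, leaving 5 genes in all 4 groups. The Cfap126 mean in parental culture was 0.278 TPM without replicate 1, and the Cfap74 mean in parental tumors, 1.01 TPM, fell to 0.928 to 0.992 TPM without any of 4 tumors. In tumors, which hold host tissue as well as the line, each of the 41 genes had a value above 0 in at least 1 library. In culture 19 genes were listed at 0 in both parental libraries, and 11 in every resistant library.

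Among the motors, Dnah12, an inner arm heavy chain, was the only one of 15 heavy chains with a group mean of 1 TPM or more. The outer arm heavy chains Dnah5, Dnah8, Dnah9, Dnah11 and Dnah17 had group means no higher than 0.0392, 0.0821, 0.556, 0.127 and 0.253 TPM. Dnah7a, Dnah7b and Dnah7c are near-identical copies, so the split of reads between them is uncertain; their highest group means were 0.0749, 0.592 and 0.104 TPM. Below 1 TPM in every one of the 32 libraries were 14 genes, 9 of them heavy chains.

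Other parts of a motile axoneme were also low. Foxj1, the master regulator of motile ciliogenesis, averaged 0.327 TPM in the parental and 0.224 TPM in the resistant tumors, and 0.0603 and 0.0966 TPM in the 2 lines in culture. The summed level of 12 multiciliated cell markers ranged from 1.15 to 9.75 TPM over the parental and 1.35 to 7.41 TPM over the resistant tumors, and from 1.06 to 6.06 and 0.239 to 4.66 TPM over the cultures of the same lines. Of those markers 7 were listed at 0 in both parental cultures, and 5 in every resistant culture. The same sum for 11 sperm markers reached at most 6.50 TPM in any tumor and 1.53 TPM in any culture. Of 8 markers of colon epithelium, 6 had a mean below 1 TPM in every group: Epcam was listed at 0 in both parental cultures, with a mean of 0.0104 TPM in resistant culture, and Krt8 and Krt18 had group means no higher than 0.205 and 0.441 TPM in any group. The exceptions were Cdh1, at means of 1.56 and 1.22 TPM in parental and resistant tumors, and Krt20, at 2.75 TPM in parental culture and 0.0215 TPM in resistant culture (-1.85 ± 0.28, limma adjusted p = 0.00366). Testing in culture required 1 TPM in 2 libraries, which Krt20 met through the parental cultures alone.

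**Figure D1:**
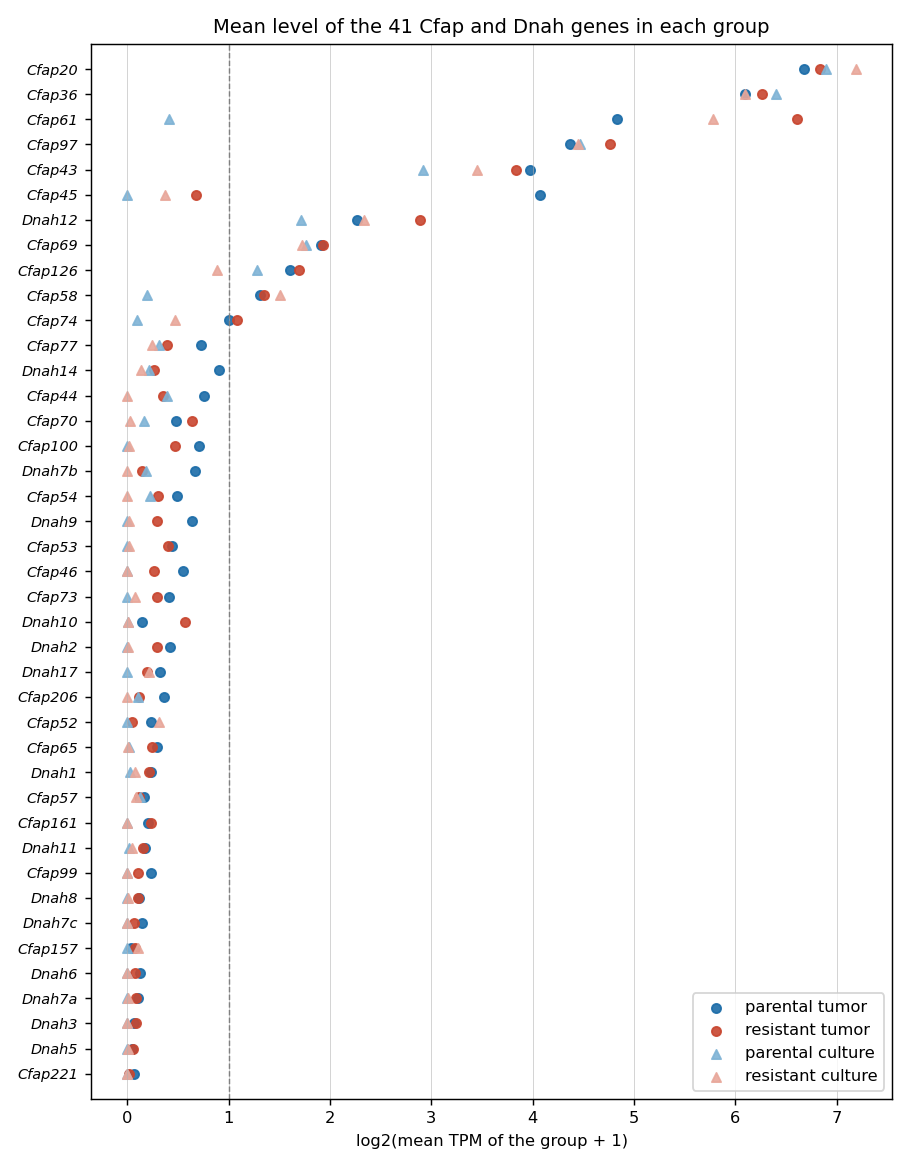
Mean level of each of the 41 genes in each group, as log2(mean TPM + 1) on the horizontal axis (circles, tumors; triangles, culture; the dashed line is 1 TPM), with genes ordered by the mean of the 4 group means. 11 genes reach the line in at least 1 group, Cfap20 and Cfap36 lead, and Cfap61 and Cfap45 have the widest gaps between groups.

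The highest levels were those of Cfap20 and Cfap36. Cfap20, a protein of the inner junction of the doublet, had means of 101 ± 15.1 TPM (SD, n = 13) and 113 ± 30.3 TPM (n = 12) in tumors of the parental and resistant lines, and 118 ± 13.7 TPM (n = 2) and 145 ± 23.3 TPM (n = 5) in their cultures. Cfap36, a partner of the small GTPase ARL3 in primary cilia, followed at 67.3 ± 17.8, 76.0 ± 13.4, 83.6 ± 4.58 and 67.2 ± 18.4 TPM in the same order. Neither differed between the lines beyond the spread between libraries: limma gave Cfap20 a log2 fold change of 0.13 ± 0.12 (SE) in tumors (adjusted p = 0.421) and 0.28 ± 0.18 in culture (adjusted p = 0.330). For Cfap36 it gave 0.19 ± 0.12 in tumors (adjusted p = 0.231) and -0.35 ± 0.24 in culture (adjusted p = 0.370). Cfap36 overlaps the protein-coding gene Ppp4r3b, and whether reads were assigned by strand is not given, so its level is uncertain. Cfap43, Cfap45, Cfap61 and Dnah12 each overlap 1 gene not listed as protein-coding, and the same limit holds for them. The order of levels between Cfap97, Cfap43 and Cfap45 in parental tumors is within their spread.

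Between the lines in tumors, 3 of the 11 genes tested were higher in the resistant line, 1 was lower and 7 did not pass. Over all 12095 genes tested, 16.3% were higher and 13.9% lower. The median log2 fold change was 0.13 over the 11 genes and 0.04 over all genes. All fold changes are on the log2(TPM + 1) scale, which understates changes of low genes, and a gene was tested only if it reached 1 TPM in 12 or more of the tumors, so the 30 untested genes carry no verdict. Higher were Cfap61, Cfap97 and Dnah12, and lower was Cfap45.

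Cfap45 lies inside the doublet microtubules, where it stabilizes the axoneme. In parental tumors its lowest level was 2.01 TPM, its median 10.1 and its highest 44.8. In resistant tumors the lowest was 0, the median 0.472 and the highest 1.90. Every one of the 12 resistant tumors was below every one of the 13 parental tumors. How many of all genes tested separated the tumor groups in this way was not counted. The log2 fold change was -2.96 ± 0.36 (SE; limma adjusted p = 9.61e-07). Cfap45 passed the low-level filter through the parental tumors alone. Both parental cultures listed it at 0, and the 5 resistant cultures read 1.36, 0, 0, 0.130 and 0 TPM, so the high parental level was seen only in the libraries from tumors. It was not tested between the lines in culture.

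Markers of some immune cells were also lower in resistant tumors. Over all genes tested in tumors, 13.9% were lower and 16.3% higher in the resistant line. Of 8 macrophage markers 6 were lower in resistant tumors, 1 was higher (Cd163) and 1 did not pass. Their summed level was 204, 692 and 940 TPM (lowest, median, highest) among the parental and 215, 308 and 430 TPM among the resistant tumors, and at most 2.51 TPM in any culture, where the macrophage marker Adgre1 was listed at 0 in both parental libraries. Of 6 leukocyte markers 4 were lower in resistant tumors, and 2 of the 3 B cell markers tested were lower. Unlike the macrophage markers, these 2 lists were also expressed in culture. The leukocyte sum was 3.50 to 7.15 TPM in parental and 17.4 to 131 TPM in resistant cultures. The B cell sum was 18.6 to 19.8 and 23.7 to 31.6 TPM, so neither list marks host cells alone. Of 6 T cell markers tested, 0 were lower and 0 higher. Across the 13 parental tumors, Cfap45 and the summed macrophage level, both on the log2 scale, had a Pearson r of 0.66 (permutation p = 0.0076, adjusted 0.0684 over 72 relations) and a Spearman rho of 0.68 (permutation p = 0.0134, adjusted 0.121). Without the 2 tumors farthest from the median macrophage level r was 0.67, and within the 9 parental tumors of lower GC index, described below, it was 0.71. Across the 12 resistant tumors r was -0.51 (permutation p = 0.0929, adjusted 0.232) and rho -0.47 (permutation p = 0.130, adjusted 0.283), and r was -0.57 without the 2 farthest. Neither relation passed the correction. With the level of Ptprc, the pan-leukocyte gene CD45, as a covariate, the log2 fold change was -2.75 (limma adjusted p = 4.22e-06). The part of macrophages in this difference was not tested, and in whole tumors fewer cells of a type and less RNA per cell cannot be told apart.

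Cfap61 belongs to a complex at the base of a radial spoke. Across parental tumors its lowest, median and highest levels were 4.51, 25.1 and 61.1 TPM. The resistant tumors gave 15.4, 103 and 203 TPM. The ranges overlapped, with 7 of 12 resistant tumors above all parental tumors and 6 of 13 parental tumors below all resistant ones. The log2 fold change was 1.83 ± 0.44 (SE; limma adjusted p = 0.00266). Skeletal muscle markers also differed between the lines in tumors: 3 of 7 were higher in resistant tumors, against 16.3% of all genes tested. The summed level of the 7 markers ran over 8.37, 41.1 and 70.7 TPM (lowest, median, highest) for the parental line and 2.30, 98.9 and 244 TPM for the resistant line. In resistant culture that sum was at most 9.14 TPM, and Cfap61 was at 7.66, 73.7, 65.6, 16.9 and 106 TPM. The part of muscle in the Cfap61 difference between the tumors was not tested.

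Cfap97 and Dnah12 differed by less. Cfap97, at 12.7, 18.7 and 31.3 TPM (lowest, median, highest) in parental tumors, stood at 22.8, 25.9 and 30.6 TPM in resistant tumors, where 11 of 13 parental tumors were below every resistant one. Its log2 fold change was 0.43 ± 0.11 (limma adjusted p = 0.00312). Dnah12 was at 1.80, 3.79 and 6.64 TPM across parental tumors, and the resistant ones overlapped these at 3.67, 5.94 and 10.5 TPM. For Dnah12 the log2 fold change was 0.61 ± 0.17 (limma adjusted p = 0.00621).

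Dnah12 and Cfap43 also followed a property of the libraries. A GC index was computed for every library: how far its GC-rich genes lie from their tumor mean (median, log2), less the same for GC-poor genes. It ran from -0.29 to 0.91 in parental tumors, 4 of which were above 0.5, and from -0.55 to 0.28 in resistant tumors. In parental tumors the r between Dnah12 and the index was -0.80 (permutation p = 0.00067, adjusted 0.0241 over 72 relations) and rho was -0.81 (permutation p = 0.00139, adjusted 0.0902). Without the 2 tumors farthest from the median index r was -0.69, and within the 9 tumors of lower index it was -0.45. In resistant tumors r was -0.82 (permutation p = 0.00144, adjusted 0.0346), rho -0.78 (permutation p = 0.00376, adjusted 0.0902) and r -0.80 without the 2 farthest. With the index as a covariate the line difference in Dnah12 was 0.30 (limma adjusted p = 0.0749), and without the 4 tumors of high index, a step chosen after the data were seen, it was 0.42 (limma adjusted p = 0.0537), so the call ended in both. Cfap61, Cfap97 and Cfap45 passed in both. The Cfap36 difference passed in both, at 0.33 (limma adjusted p = 0.0393) and 0.32 (limma adjusted p = 0.0416).

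Cfap43, which with Cfap44 tethers an inner arm dynein, went the other way along the index. In parental tumors r was 0.85 (permutation p = 0.00023, adjusted 0.0166), rho 0.78 (permutation p = 0.0028, adjusted 0.0902), r without the 2 farthest 0.70 and r within the 9 tumors of lower index 0.41. In resistant tumors r was 0.79 (permutation p = 0.00218, adjusted 0.0392), rho 0.64 (permutation p = 0.0299, adjusted 0.165) and r without the 2 farthest 0.56. Its line difference in tumors was -0.09 ± 0.14 (limma adjusted p = 0.656). These 4 relations were the only ones of the 72 that passed by Pearson's r, and 0 passed by Spearman's rho.

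**Figure D2:**
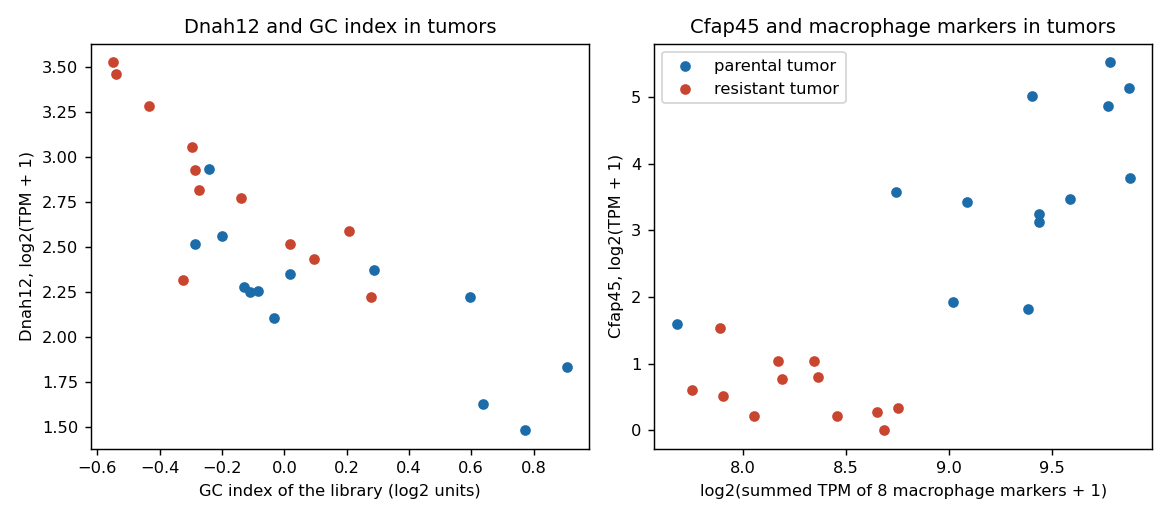
Each point is a tumor; the left panel plots log2(TPM + 1) of Dnah12 against the GC index of the library, the right panel log2(TPM + 1) of Cfap45 against the log2 summed TPM of 8 macrophage markers. Dnah12 is lower where the index is higher in both lines (r of -0.80 and -0.82), and the parental tumors lie above all resistant tumors in Cfap45.

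**Figure D3:**
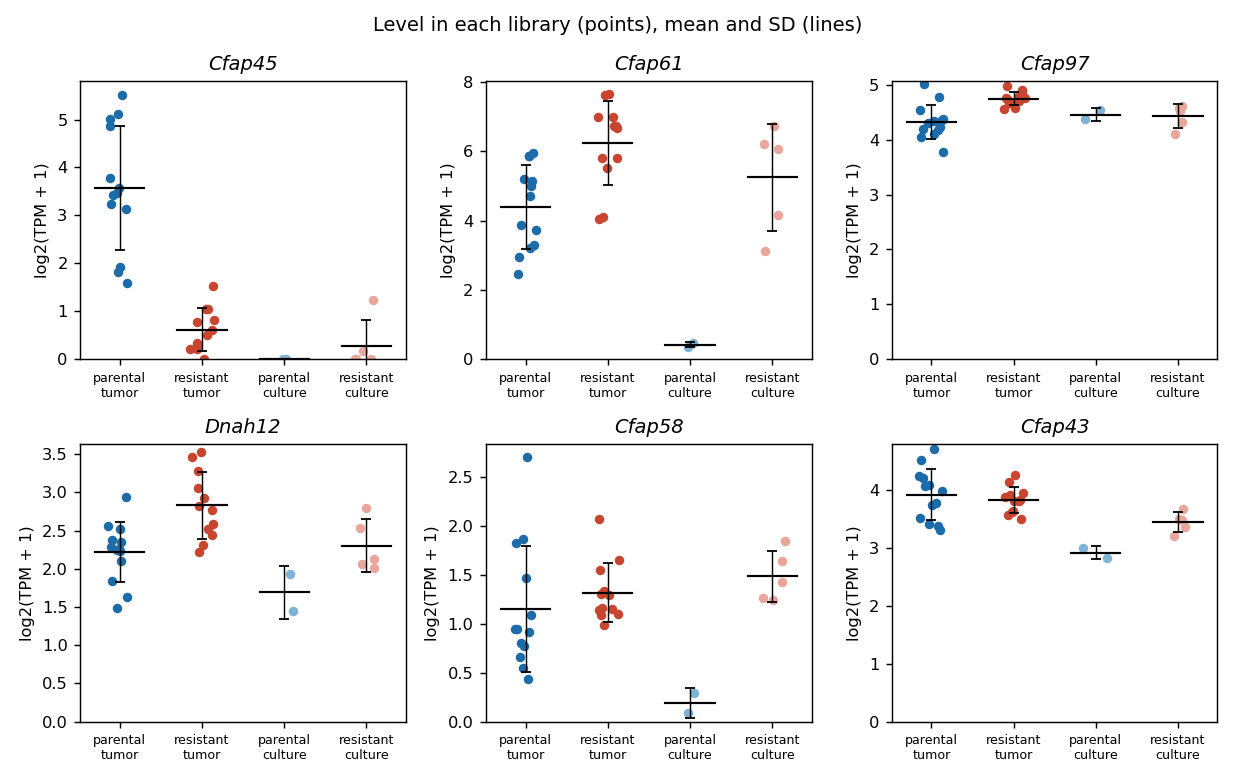
Level of 6 genes in each library as log2(TPM + 1), with the mean (horizontal line) and SD (bar) of each group of 13, 12, 2 and 5 libraries. Cfap45 is high in parental tumors only, and Cfap61 and Cfap58 are low in both parental cultures and higher in all 5 resistant cultures.

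In culture, where no host cells are present, 2 of the 9 genes tested were higher in the resistant line and 0 were lower. Over all 11201 genes tested, 6.15% were higher and 8.04% lower; the median was 0.28 over the 9 genes and -0.01 over all. Cfap61 stood at 0.282 and 0.375 TPM in the 2 parental cultures, below all 5 resistant cultures, which varied from 7.66 to 106 TPM. Its log2 fold change was 4.85 ± 0.86 (SE; limma adjusted p = 0.00689). Cfap58, a protein needed for the sperm flagellum, was at 0.0601 and 0.228 TPM in parental and 1.36 to 2.61 TPM in resistant cultures, with no overlap. Its log2 fold change was 1.296 ± 0.28 (limma adjusted p = 0.0169). Both genes passed the low-level filter through the resistant cultures alone, since neither reached 1 TPM in a parental culture. In tumors Cfap58 did not pass, at 0.17 ± 0.20 (limma adjusted p = 0.561). Both culture calls rested on having 2 parental libraries: without the first or the second, the limma adjusted p was 0.0791 or 0.0770 for Cfap61 and 0.0930 or 0.0649 for Cfap58, with log2 fold changes of 4.48 to 5.39 and 1.19 to 1.40 over all single libraries left out. The groups also did not overlap for Cfap43, Dnah12 and Cfap74. With 2 against 5 libraries groups separate easily, and how many of all genes did so was not counted. Cfap43 was at 6.12 and 6.95 TPM in parental and 8.21 to 11.7 in resistant cultures (log2 fold change 0.53 ± 0.20, limma adjusted p = 0.106), and Dnah12 at 1.73 and 2.83 against 3.02 to 5.94 TPM (0.61 ± 0.29, limma adjusted p = 0.200); Cfap74 was not tested.

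**Figure D4:**
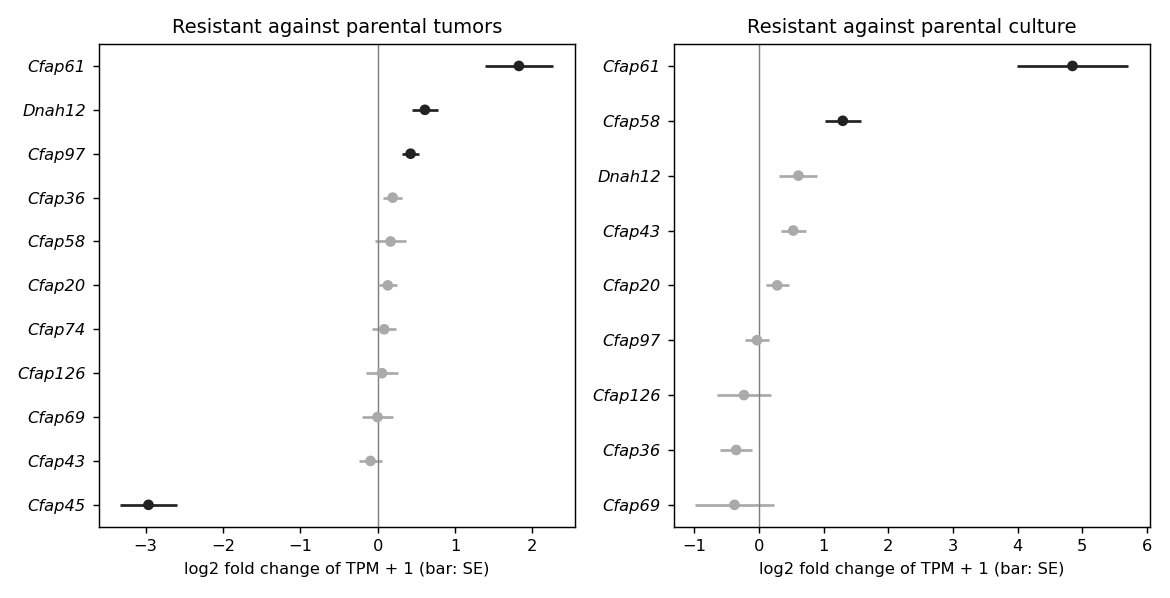
Log2 fold change of TPM + 1 (points) and its SE (bars), resistant against parental, for the 11 genes tested in tumors (left) and the 9 tested in culture (right); black marks an adjusted p below 0.05. In tumors Cfap45 stands at -2.96 and Cfap61 at 1.83, and in culture Cfap61 stands at 4.85 and Cfap58 at 1.296.

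The line difference itself was compared between tumors and culture. Of 26 genes tested, Cfap45 was the only one that passed: its line difference was lower in tumors than in culture by a log2 value of -3.25 ± 0.79 (SE; limma adjusted p = 0.0113). Over all 15061 genes tested, 2.4% had a higher and 1.61% a lower line difference in tumors. In culture Cfap45 was listed at 0 in both parental and in 3 of the 5 resistant libraries. The Cfap45 value of -3.25 therefore rests largely on its line difference in tumors, -2.96. Without the first or the second parental culture the Cfap45 call ended (limma adjusted p = 0.0755 or 0.120). For Cfap61 the value was -3.02 ± 1.06 and did not pass (limma adjusted p = 0.113), though it passed without the first resistant culture, at -3.56 (limma adjusted p = 0.0375). For Cfap58 it was -1.13 ± 0.43 (limma adjusted p = 0.164), and Dnah12 did not pass either.

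Tumors and culture were also compared within each line. The median log2 fold change of all genes was 0.21 in the parental line and 0.18 in the resistant line, so the values below are also given relative to it. In the parental line 3 of 21 genes tested were higher in tumors and 0 lower, against 16.1% and 5.99% of all 14348 genes: Cfap61 by 3.997 ± 0.77 (limma adjusted p = 0.000865), Cfap45 by 3.57 ± 0.82 (limma adjusted p = 0.00368) and Cfap43 by 1.003 ± 0.32 (limma adjusted p = 0.0304), or 3.79, 3.36 and 0.79 relative to the median. Cfap61 and Cfap45 passed the filter through the tumors alone. Under quantile normalization, which changed the split of all genes from 2310 higher and 859 lower to 1622 and 1492, the Cfap43 call ended. The calls also ended without the first or the second parental culture, with a limma adjusted p of 0.0621 or 0.0542 for Cfap45 and 0.236 or 0.141 for Cfap43.

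In the resistant line 5 of 10 genes were higher in tumors and 0 lower, against 35.3% and 15% of all 12312 genes. They were Cfap126, the basal body protein Flattop (0.71 ± 0.26, limma adjusted p = 0.0250), the central pair protein Cfap74 (0.58 ± 0.18, limma adjusted p = 0.0123), Dnah12 (0.52 ± 0.21, limma adjusted p = 0.0462), Cfap43 (0.38 ± 0.13, limma adjusted p = 0.0196) and Cfap97 (0.32 ± 0.10, limma adjusted p = 0.0142). Relative to the median of all genes these were 0.54, 0.41, 0.35, 0.20 and 0.15. With quantile normalization the split of all genes moved from 4342 higher and 1847 lower to 2693 and 3470, none of the 5 was called higher, and Cfap126, Cfap74 and Dnah12 turned to -0.34, -0.41 and -0.16. Cfap74 was then called lower in tumors (limma adjusted p = 0.0237). The Dnah12 call also ended in 11 of the fits that left out a single library. Cfap74 passed the filter through the tumors alone, since no resistant culture reached 1 TPM. Cfap74 overlaps the protein-coding gene Gabrd, which leaves its level uncertain as well. Cfap61, at 0.97 ± 0.60, did not pass in the resistant line (limma adjusted p = 0.190).

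Cfap69, needed for the sperm flagellum, had means of 2.76 ± 1.32, 2.81 ± 1.43, 2.38 ± 0.482 and 2.29 ± 2.99 TPM in the same order of groups. It passed in none of the 5 comparisons, but the resistant culture mean rested on replicate 4 at 7.56 TPM, beside 0.461 to 1.77 TPM in the other 4. Without that library, resistant tumors were higher than resistant culture by 0.90 (limma adjusted p = 0.0133), against 0.46 ± 0.34 with it (limma adjusted p = 0.268).

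The genes beside Cfap61, Cfap45 and Dnah12 were read from RefSeq gene positions in GRCm38.p6, and those of Cfap97 and Cfap58 are not described. They were the 3 nearest protein-coding genes of the table on each side. Over all genes tested, 16.3% were higher and 13.9% lower in resistant tumors, and 6.15% higher and 8.04% lower in resistant culture. Beside Cfap61, the nearest on one side, the splicing factor gene Crnkl1, did not pass between the lines in tumors (0.24 ± 0.15, limma adjusted p = 0.244) or in culture (0.12 ± 0.21, limma adjusted p = 0.742). The third on that side, Rin2, a regulator of the GTPase RAB5, was higher in the resistant line in both: its mean over tumors was 32.3 TPM for the parental and 51.7 TPM for the resistant line (0.75 ± 0.16, limma adjusted p = 0.000635) and 9.27 and 53.6 TPM in culture (2.40 ± 0.30, limma adjusted p = 0.00147). Naa20, between them, did not pass in either. On the other side the nearest gene, Insm1, was not tested between the lines. Beyond it Ralgapa2 and Kiz were higher in resistant tumors, by 0.55 ± 0.14 (limma adjusted p = 0.00398) and 0.49 ± 0.14 (limma adjusted p = 0.00745), and passed in neither direction in culture.

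Around Cfap45 the neighbours include genes of immune cells. Slamf9, a receptor of myeloid cells, averaged 26.8 TPM with the parental and 12.5 TPM with the resistant line in tumors (-0.92 ± 0.31, limma adjusted p = 0.0237) and was listed at 0 in all 7 cultures. Igsf9 was lower in resistant tumors too (-0.49 ± 0.17, limma adjusted p = 0.0325), and the nearest gene, Tagln2, did not pass (-0.20 ± 0.18, limma adjusted p = 0.400). Slamf8, of the same receptor family as Slamf9, did not pass either, at means of 7.59 and 5.85 TPM (-0.30 ± 0.19, limma adjusted p = 0.233), and Vsig8 and Fcrl6 were not tested. The gene nearest to Dnah12 on one side, Pde12, passed neither in tumors (0.17 ± 0.11, limma adjusted p = 0.241) nor in culture (0.54 ± 0.20, limma adjusted p = 0.108), and Asb14, nearest on the other, was not tested. Of the genes beyond them Arf4 was higher in the resistant line in tumors (0.57 ± 0.12, limma adjusted p = 0.000580) and in culture (0.91 ± 0.19, limma adjusted p = 0.0132). Appl1 passed in tumors (0.64 ± 0.21, limma adjusted p = 0.0247) but not in culture (-0.16 ± 0.32, limma adjusted p = 0.786), and Dennd6a passed in culture (0.78 ± 0.19, limma adjusted p = 0.0286) but not in tumors (0.46 ± 0.22, limma adjusted p = 0.116).

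The rest of the ciliary apparatus was read from lists of genes with other symbols. Of the axonemal lists, few genes reached the test. Over all genes tested, 16.3% were higher and 13.9% lower in tumors, and 6.15% higher and 8.04% lower in culture. Too few genes per list were tested to set its count against these shares. For the outer arm docking complex and the ruler that spaces the dynein arms, 2 of 7 genes were tested and both were higher in resistant tumors: Ccdc114 by 0.58 ± 0.18 (limma adjusted p = 0.0160) and Ccdc40 by 0.65 ± 0.24 (limma adjusted p = 0.0418). In the central pair list 1 of 7 was tested and was higher (Spef1, 0.52 ± 0.18, limma adjusted p = 0.0280). Radial spokes, the nexin-dynein regulatory complex, dynein intermediate and light chains and dynein arm assembly factors had 3, 1, 4 and 8 genes tested and 0 that passed. Among regulators Rfx3, an RFX factor of both primary and motile cilia, was higher in resistant tumors (0.37 ± 0.14, limma adjusted p = 0.0483) and was 1 of 2 tested. In culture, 0 genes of the dynein chain, assembly, docking, spoke, nexin and central pair lists passed (4, 7, 2, 3, 2 and 2 tested), and of 3 regulators tested Ccno, a cyclin-like factor of centriole amplification, was lower in the resistant line (-1.13 ± 0.27, limma adjusted p = 0.0254).

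Of the other axonemal and inner microtubule proteins 6 of 20 were tested in tumors. There 2 were lower in the resistant line, where 13.9% of all genes tested were lower. Efhc2, which like Cfap45 sits inside the doublets, averaged 6.78 TPM across parental and 0.163 TPM across resistant tumors (-2.49 ± 0.27, limma adjusted p = 1.28e-07), and it passed the filter through the parental tumors alone, 12 of which reached 1 TPM against 0 of the resistant ones. In culture Efhc2 was at 50.6 ± 2.88 TPM (n = 2) in the parental and 2.92 ± 6.32 TPM (n = 5) in the resistant line (-4.81 ± 0.96, limma adjusted p = 0.0119). It passed the filter there through the parental cultures, since only 1 resistant culture reached 1 TPM. The resistant mean rested on replicate 1 at 14.2 TPM, and the other 4 were at 0 to 0.251 TPM. That same library had the lowest Cfap61 (7.66 TPM) and the highest Cfap45 (1.36 TPM) of the resistant cultures. Efhc2 was thus high in parental cells without host tissue, where Cfap45 was listed at 0. The second was Wdr66, which encodes CFAP251 and works in the complex of Cfap61 (-0.69 ± 0.24, limma adjusted p = 0.0278), so the 2 partners moved in opposite directions in tumors.

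Genes of intraflagellar transport and of the primary cilium were widely expressed. In intraflagellar transport, 27 of 31 genes had a mean of 1 TPM or more in parental tumors, and of 27 tested between the tumors 5 were higher and 1 lower in the resistant line, where 16.3% of all genes tested were higher and 13.9% lower. Dync2li1, a light intermediate chain of the ciliary dynein motor, was higher by 1.72 ± 0.23 (limma adjusted p = 4.12e-06) and Ttc26 (IFT56) by 0.88 ± 0.14 (limma adjusted p = 3.31e-05), while Ift20 was lower by -0.51 ± 0.13 (limma adjusted p = 0.00327). Among BBSome and primary cilium membrane genes 8 of 28 were higher and 2 lower, with Tulp3 at 0.78 ± 0.19 (limma adjusted p = 0.00263) and B9d2 at -0.72 ± 0.12 (limma adjusted p = 8.31e-05). The list medians were 0.12 and 0.23, against 0.04 over all genes. In culture intraflagellar transport had 0 higher and 2 lower of 28, and the primary cilium list 3 higher and 2 lower of 27, where 6.15% of all genes tested were higher and 8.04% lower, with Ift20 lower again (-0.80 ± 0.14, limma adjusted p = 0.00716) and Tulp3 higher again (0.73 ± 0.17, limma adjusted p = 0.0221). Cytoplasmic dynein, the transport motor outside cilia, had 1 of 9 higher and 1 lower in tumors, and 1 higher and 2 lower of 9 in culture, set against the same shares of all genes; its light intermediate chain Dync1li2 was higher in the resistant line in both, by 0.47 ± 0.10 (limma adjusted p = 0.000981) and 0.60 ± 0.14 (limma adjusted p = 0.0247).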

How the data were processed

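The authors deposited a table of TPM values per gene symbol for 32 libraries. Per the labels' protocols, total RNA was treated with DNase, and a KAPA RNA HyperPrep kit was used for the libraries. The submitters' processing notes name STAR and the build GRCh38, a human build, although the symbols are those of mouse; the quantifier and annotation are not given in the sources used here. No coordinates were taken from that build. TPM values sum to the same total in each library, so depth is unknown, and the smallest value above 0, 8.57e-317 TPM, shows that values are estimates and not multiples of a read.

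From the deposited TPM, limma 3.58.1 in R 4.3.3 was run on log2(TPM + 1) with a trend in the variance, over genes that reached 1 TPM in no fewer libraries than the smaller group holds. P-values were adjusted by Benjamini-Hochberg across the genes tested, and those under 0.05 were called. The 2 lines were compared in tumors and in culture, tumors with culture in each line, and the line difference between tumors and culture. The GC index rests on GC content from GENCODE transcripts, known for 98.6% of the genes used, with 2243 GC-rich and 885 GC-poor genes. Correlations used 100000 permutations, two-sided. Promoter windows come from RefSeq (GRCm38.p6). Alternatives were another pseudocount, other filters, quantile and median-of-ratios scaling, 1 fit over all libraries, covariates, a rank-sum test and leaving out single libraries.

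The genes and lists were chosen with earlier results of these data known. Values are given for genes with a mean of 1 TPM in a group that passed between the lines, and for the 5 with the highest levels; of the other lists, genes with the lowest adjusted p are named. Neighbouring genes were chosen after the data were seen. Marker lists for T cells, endothelium, skin, adipocytes and nerve had 0 genes that passed between the lines in tumors. The numbers tested were 6 of 7, 7 of 7, 1 of 7, 1 of 6 and 3 of 5 in that order. Most skin and adipocyte markers thus carry no verdict.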

Additional observations from a re-analysis of the deposited data

Results flagged for a closer look

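In resistant culture, replicate 4 read 7.56 TPM for Cfap69, apart from the other 4 libraries, which read 0.461 to 1.77 TPM. It was the only such library among the 8 genes expressed in that group, and with a 95% critical value chance sets a library apart in about 1 in 20 groups, and 8 genes were examined. Without it the Cfap69 difference of resistant tumors from resistant culture was 0.90 (limma adjusted p = 0.0133). The line difference in Cfap45 differed between tumors and culture by -3.25 on the log2(TPM + 1) scale (limma adjusted p = 0.0113). Of the resistant tumors, 12 of 12 were below all parental tumors, a separation not counted over all genes, while both parental cultures listed Cfap45 at 0.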

How the results depend on the processing

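Between the lines in tumors, Cfap61 and Cfap97 kept their direction and their call in every alternative run, and Cfap45 in every one that tested it. With a filter at 5 TPM, 0 genes were called lower, because Cfap45 was not tested there. Leaving out single libraries gave 3 higher and 1 lower each time. In culture, 1 gene was called lower with no filter (Cfap44), 1 was called higher with the filter at 5 TPM and 0 by the rank-sum test, which called 0 of all genes and had 19 at an unadjusted p below 0.05; leaving out single libraries gave 0 to 2 higher. For parental tumors against parental culture, 5 genes were called higher with a pseudocount of 0.1, with 1 fit over all libraries and without the tumors of high GC index, and 0 by the rank-sum test, which called 0 of all genes (5210 at an unadjusted p below 0.05). There the range was 1 to 4 over single libraries left out. For resistant tumors against resistant culture, 2 genes were called higher with the filter at 5 TPM, 3 with 1 fit and 0 with quantile normalization. Quantile normalization called 2 lower, Cfap74 at -0.41 and Cfap58 at -1.10, and turned Cfap126 to -0.34 and Dnah12 to -0.16. Median-of-ratios scaling and the single fit each called 1 lower. Leaving out single libraries gave 2 to 6 higher and 0 to 1 lower. For the change of the line difference from culture to tumors, a pseudocount of 0.1 called 3 lower, and leaving out single libraries gave 0 to 2. The cause of these shifts was not tested beyond those stated. No paired analysis was possible because the labels give no replicate numbers that link libraries of different groups.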
